A study of Mus musculus with 6 samples.

Results

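The genes described here are 8 genes of ventricular wall compaction: Prdm16, Mycn, Mib1, Fkbp1a, Dtna, Casz1, Daam1 and Nfatc4. They were taken by gene symbol from a table of 20893 genes measured in mouse hearts, and all 8 were found there once each and were high enough to be tested among 14974 genes. The study set 3 heart libraries of a germline knockout of Rbpms, titled R1KO in the labels, against 3 wildtype libraries, all labelled C57BL6/J. The hearts are embryonic by the title of the series but neonatal by its design text, which also names the controls as littermates, so the age is not settled here. Rbpms encodes an RNA-binding protein, and no source used here says which stretch of it was deleted. The descriptions do not say whether each library is a separate animal, and p-values measure the spread between libraries only.

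During heart development the ventricle first forms a meshwork of muscular ridges, the trabeculae, beneath the endocardium, and then thickens its outer compact layer by division of cardiomyocytes. When the compact layer stays thin and the trabeculae persist, the result is called noncompaction, a form of cardiomyopathy. Compaction is known to depend on transcription factors of the compact layer, on Notch and BMP signals between endocardium and myocardium, and on the cytoskeleton that gives cardiomyocytes their orientation. The question put to the table was whether RNA levels of genes tied to this process differ between knockout and wildtype hearts.

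None of the 8 genes passed the test. By limma on log2(value + 1), with p-values adjusted over all genes, 0 of 8 passed an adjusted p of 0.05, where 0.942% of all genes tested passed. Their fitted log2 fold changes, knockout minus wildtype, ran from -0.01 for Fkbp1a to 0.43 for Mycn. Casz1 and Dtna were the 2 of 8 whose knockout and wildtype libraries did not overlap, both with higher values in knockout, and groups that do not overlap were found in 22.0% of all genes tested. The same 2 had an unadjusted p under 0.05, reached by 16.4% of all genes tested. The median log2 fold change of the 8 was 0.13, that of all genes tested was 0, and the median size of the change without regard to sign was 0.13 for both. A fitted value above 0 was found in 7 of the 8 and in 49.8% of all genes tested.

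The values are read numbers that the authors multiplied by a factor for each library and rounded, here called scaled read numbers. Recovered read totals, which are estimates, ran from 4163230 to 5805691 per library. Rbpms held 375, 340 and 507 in the knockout libraries and 1182, 1176 and 1317 in the wildtype libraries (log2 fold change -1.61, limma, adjusted p = 0.0124), lower in each knockout library as labelled. That call was lost without knockout replicate 1 and without each wildtype replicate (adjusted p = 0.0522, 0.0948, 0.0965 and 0.137), with log2 fold changes of -1.56, -1.63, -1.63 and -1.55. The summed values of 9 markers of ventricular cardiomyocytes overlapped between the groups, at 27918 to 31261 in knockout and 28805 to 31536 in wildtype, and 0 of the 9 passed the test. A sum can hide opposite differences. Groups did not overlap for Myh7, higher in knockout, and Tnnt2, lower (log2 fold changes 0.25 and -0.2, limma, adjusted p = 0.0901 and 0.189). They overlapped for the other markers of this list, and were separate in 22.0% of all genes tested. The highest value of any gene was only 5138 to 6049 per library, and Myh6, 1 of these markers, averaged 0.792 reads per base of exon. Whether duplicate reads were removed is not known here, and removal would hold down high values such as these and their differences. Endothelial and endocardial markers summed to 8491 to 9097 in knockout and 7879 to 8096 in wildtype, and smooth muscle and pericyte markers to 5465 to 5795 and 5981 to 6364, with 0 of 9 and 0 of 8 genes past the threshold. The endothelial and endocardial list was uneven. Npr3, Emcn, Plvap, Nfatc1, Tie1 and Pecam1 had log2 fold changes of 0.55, 0.41, 0.19, 0.16, 0.14 and 0.12 (limma, adjusted p = 0.0669 to 0.568). Those of Tek, Kdr and Cdh5 were 0.05, 0.03 and -0.04. The smooth muscle and pericyte list was split. Myh11, Acta2, Cnn1, Kcnj8 and Abcc9 had log2 fold changes of -0.61, -0.32, -1.33, -0.23 and -0.18 (limma, adjusted p = 0.057 to 0.403). Those of Rgs5, Tagln and Pdgfrb were 0, -0.03 and 0.12. Of 8 atrial cardiomyocyte markers 1 fell, Stard10 (log2 fold change -0.64, limma, adjusted p = 0.0472), and 0 rose. In a whole heart, fewer cells of a type and less RNA per cell cannot be told apart. Knockout replicate 3 stood apart, with 2131 for summed erythroid markers against 738 to 952 in the other 5 libraries, and 1013 for epicardial markers against 1764 to 1974 elsewhere. It was also the only female library of the knockout group by Xist (1763), as wildtype replicate 1 (1770) was among wildtype libraries, against 2 to 14 in the other 4.

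Prdm16 and Casz1 encode zinc finger transcription factors, and Mycn encodes N-Myc, a transcription factor that keeps cardiomyocytes of the compact layer dividing. Casz1 held 1068, 1208 and 1198 in the knockout libraries and 1005, 994 and 975 in the wildtype libraries. Every knockout library lay above every wildtype library, and the wildtype libraries were close together. Casz1 averaged 1158 ± 78.1 against 991 ± 15.2 (SD, n = 3 each), and the fitted log2 difference was 0.22 (standard error 0.07, limma, adjusted p = 0.151). The 95% interval of that difference ran from 1.05 to 1.3 times the wildtype level, and leaving out any library gave 0.19 to 0.28 on the log2 scale. Casz1 lies on chromosome 4 of mm39 from 148888886 to 149039346.

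Prdm16, whose protein acts in compact myocardium as a repressor of the trabecular programme, held 436, 515 and 367 in knockout and 503, 356 and 404 in wildtype libraries. The groups overlapped throughout, with the highest value in a knockout library and the lowest in a wildtype library. Its means were 439 ± 74.1 and 421 ± 75 (SD, n = 3 each), and the fitted log2 difference was 0.06 (standard error 0.16, limma, adjusted p = 0.875). The interval of 0.814 to 1.34 times the wildtype level is wide, and the sign turned without knockout replicate 2 (-0.06) and without wildtype replicate 2 (-0.05). In the 4 male libraries alone the log2 fold change was 0.32 (adjusted p = 0.178), an alternative added after seeing the data. Prdm16 lies on chromosome 4 (reverse strand, 154400582 to 154721330).

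Mycn, on chromosome 12 (reverse strand, 12986094 to 12991915), was the lowest of the 8 by value. It held 111, 111 and 148 in knockout and 118, 65 and 97 in wildtype libraries. Both groups were scattered, with knockout replicate 3 highest and wildtype replicate 2 lowest. Its means were 123 ± 21.4 and 93.3 ± 26.7 (SD, n = 3 each), and the fitted log2 difference was 0.43 (standard error 0.22, limma, adjusted p = 0.377). This was the highest fitted value of the 8 and also the least certain, with an interval from 0.948 to 1.91 times the wildtype level. The log2 fold change was 0.19 without wildtype replicate 2 and 0.29 without knockout replicate 3, against 0.62 without wildtype replicate 1.

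The stretch of the Mycn promoter shown here carries sites of the type bound by E2F, the factors that switch on genes of DNA synthesis, and Hey2, the changed gene of the pathway in which Mib1 acts, is shown beside it with a site of the type bound by RBPJ, the DNA-binding partner of Notch. Both stretches are from RefSeq on GRCm38.p6, a different build from the mm39 of the table, and both genes lie on the reverse strand. Capitals mark TTTGGCGC in Mycn (chr12:12941937-12942086, bases 250 to 101 before the gene's start) and GTGGGAA or its reverse complement TTCCCAC in Hey2 (chr10:30842834-30843033, bases 250 to 51 before the start).
Mycn: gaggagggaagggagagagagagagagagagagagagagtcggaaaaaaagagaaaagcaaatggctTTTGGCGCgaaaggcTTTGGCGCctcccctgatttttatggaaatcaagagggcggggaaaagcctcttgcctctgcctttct
Hey2: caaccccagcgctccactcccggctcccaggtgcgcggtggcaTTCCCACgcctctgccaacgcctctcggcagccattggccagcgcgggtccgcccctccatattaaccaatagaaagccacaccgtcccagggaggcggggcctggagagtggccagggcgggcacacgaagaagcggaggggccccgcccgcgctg
TTTGGCGC was found 2 times in the Mycn stretch, and on either strand in 0.225% of 32851 promoter windows of the same 150 bases. GTGGGAA was found 1 time in the Hey2 stretch and in 4.35% of the same windows over 200 bases. Within 250 bases before the start, GTGGGAA or its reverse complement was also found 1 time in Nfatc4 and 1 time in 1 of the 2 windows of Casz1, so it is not particular to Hey2. These are matches of letters, and binding was not measured. Promoter windows were matched for 6 of the 8 genes.

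**Figure D1:**
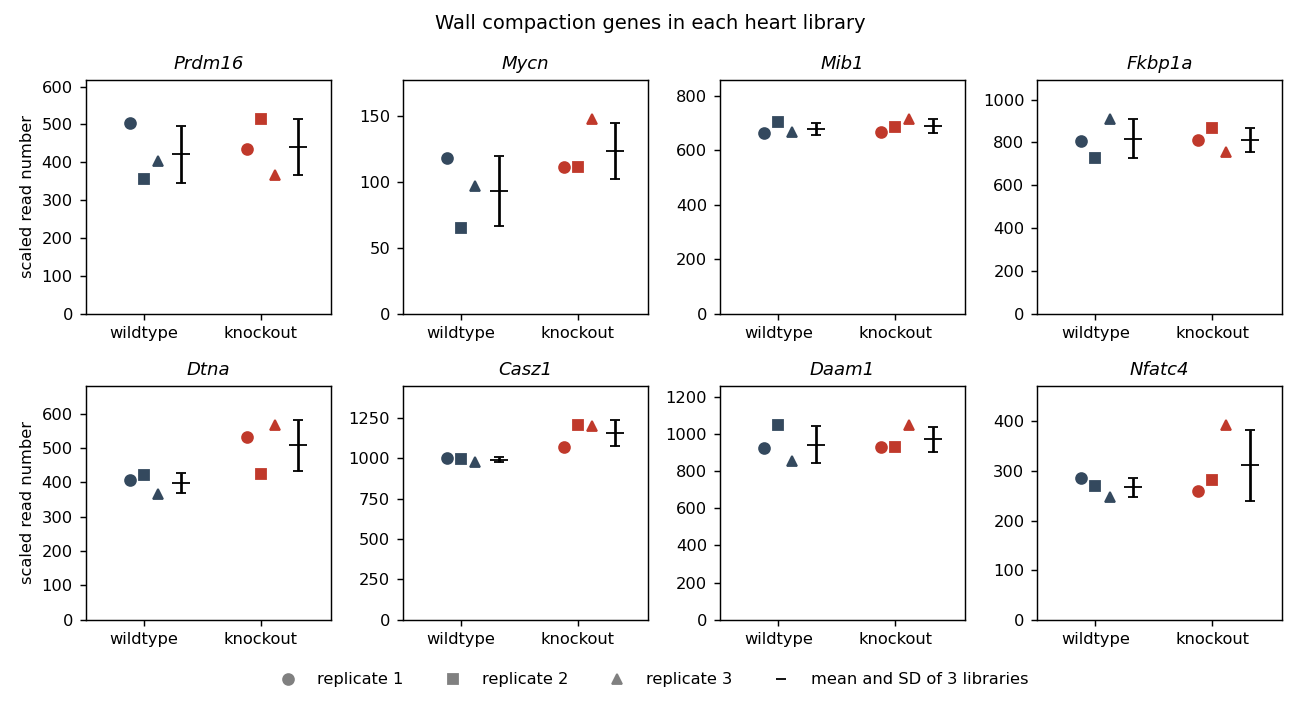
Scaled read number (vertical axes, from 0) of each wall compaction gene in the 3 wildtype and 3 knockout libraries, with the replicate number as the marker shape and the mean with SD beside the points. The groups are separate for Casz1 and Dtna and overlap for the other 6 genes, and knockout replicate 3 is the highest knockout library for Mycn, Mib1, Dtna, Daam1 and Nfatc4.

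Mib1 and Fkbp1a encode regulators of signals between the layers of the ventricular wall. Mib1 is the ubiquitin ligase that lets Notch ligands be taken up by the cell that sends the signal. It held 667, 684 and 715 in knockout and 661, 702 and 668 in wildtype libraries, so all 6 values lay within 1.08 times of each other. The means were 689 ± 24.3 and 677 ± 21.9 (SD, n = 3 each), and the fitted log2 difference was 0.02 (standard error 0.06, limma, adjusted p = 0.877). The interval of 0.923 to 1.12 times the wildtype level made Mib1 the most narrowly bounded of the 8. Its spread within groups, an SD of 0.05 on the log2 scale, was below that of 93.8% of 11710 genes with a mean value of at least 50. Mib1 spans chromosome 18 from 10725548 to 10818704, and the microRNA host gene Mir133a-1hg on the opposite strand within that span held 44 to 65 in the 6 libraries.

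Fkbp1a encodes FKBP12, a small protein that binds the ryanodine receptor and the type I receptors of the TGF beta family. It held 811, 866 and 754 in knockout and 809, 729 and 911 in wildtype libraries. Wildtype libraries gave both the lowest and the highest value. Its means were 810 ± 56 and 816 ± 91.2 (SD, n = 3 each), and the fitted log2 difference was -0.01 (standard error 0.09, limma, adjusted p = 0.977), with an interval of 0.863 to 1.15 times the wildtype level. Fkbp1a lies on chromosome 2 from 151384403 to 151403612. The mouse genome carries processed copies of this gene, so reads from a copy leave its level uncertain.

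Dtna, Daam1 and Nfatc4 act in the cytoskeleton and in calcium signalling of the cell. Dtna encodes alpha-dystrobrevin, a cytoplasmic part of the dystrophin complex that ties the cytoskeleton to the matrix. It held 532, 425 and 567 in knockout and 408, 421 and 365 in wildtype libraries. The groups did not overlap, but knockout replicate 2 lay only just above the highest wildtype library. The means were 508 ± 74 and 398 ± 29.3 (SD, n = 3 each), and the fitted log2 difference was 0.34 (standard error 0.11, limma, adjusted p = 0.175), with an interval of 1.07 to 1.51 times the wildtype level. Without knockout replicate 2 it passed the test (log2 fold change 0.47, adjusted p = 0.03), where 3.34% of the genes tested also passed. Its adjusted p was 0.0300 to 0.45 over 18 alternatives, and it passed in 1 of them. Dtna spans chromosome 18 from 23548192 to 23792772.

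Daam1 encodes a formin, a protein that builds actin filaments downstream of planar cell polarity, the pathway that orients cells within a sheet. It held 932, 930 and 1049 in knockout and 922, 1049 and 852 in wildtype libraries. Its highest value occurred in both groups. The means were 970 ± 68.1 and 941 ± 99.9 (SD, n = 3 each), and the fitted log2 difference was 0.05 (standard error 0.09, limma, adjusted p = 0.831), with an interval of 0.9 to 1.19 times the wildtype level. Daam1 spans chromosome 12 from 71877852 to 72039107.

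Nfatc4 encodes a transcription factor that enters the nucleus when the phosphatase calcineurin removes its phosphates. It held 260, 282 and 393 in knockout and 286, 269 and 247 in wildtype libraries. Knockout replicate 3 alone stood above all others, and the other 2 knockout libraries fell among the wildtype values. The means were 312 ± 71.3 and 267 ± 19.6 (SD, n = 3 each), and the fitted log2 difference was 0.2 (standard error 0.15, limma, adjusted p = 0.543). Without knockout replicate 3 the log2 fold change was 0.02. Nfatc4 lies on chromosome 14 from 56060601 to 56071400.

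**Figure D2:**
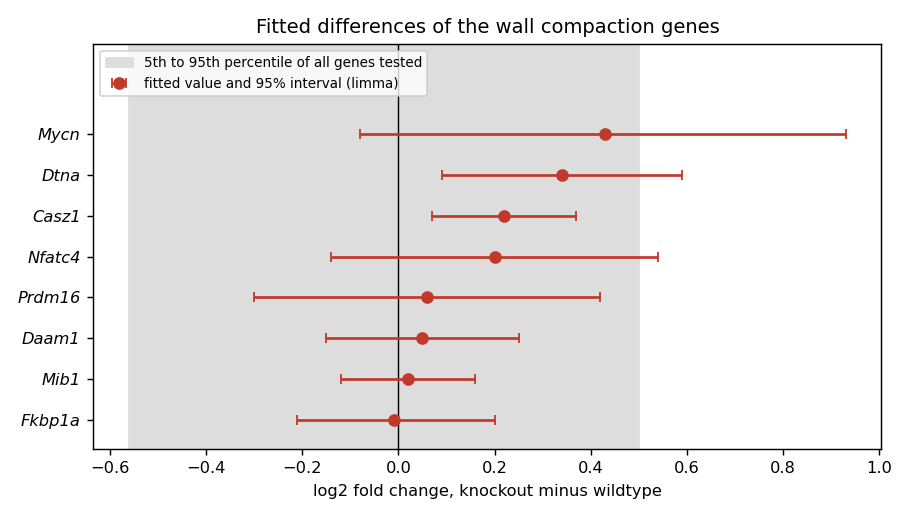
Fitted log2 fold change, knockout minus wildtype, of each wall compaction gene with its 95% interval from limma, over a grey band from the 5th to the 95th percentile of all genes tested (-0.56 to 0.5). All 8 points lie within the band, and the intervals of Casz1 and Dtna lie above 0 before adjustment over all genes.

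The libraries differed in which of the 8 genes they held highest. Knockout replicate 3 gave the highest value of all 6 libraries for Mycn, Mib1, Dtna and Nfatc4, and shared it with wildtype replicate 2 for Daam1. Among all genes tested this library was the highest in 27.7% and the lowest in 25.8%, more than any other library on both counts. Its Prdm16 and Fkbp1a values were the lowest of the knockout group. Against the wildtype mean, the 8 genes had a median log2 deviation of 0.04, 0.1 and 0.22 in knockout replicates 1, 2 and 3. Knockout replicate 3 also had the highest erythroid sum and the lowest epicardial sum, and was female by Xist, as given above. The part of these traits in its highs was not tested. Wildtype replicate 2, whose atrial cardiomyocyte markers summed to 3804 against 2405 to 2811 in the other 5 libraries, gave the lowest Prdm16, Mycn and Fkbp1a, and wildtype replicate 3 the lowest Dtna, Casz1, Daam1 and Nfatc4.

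**Figure D3:**
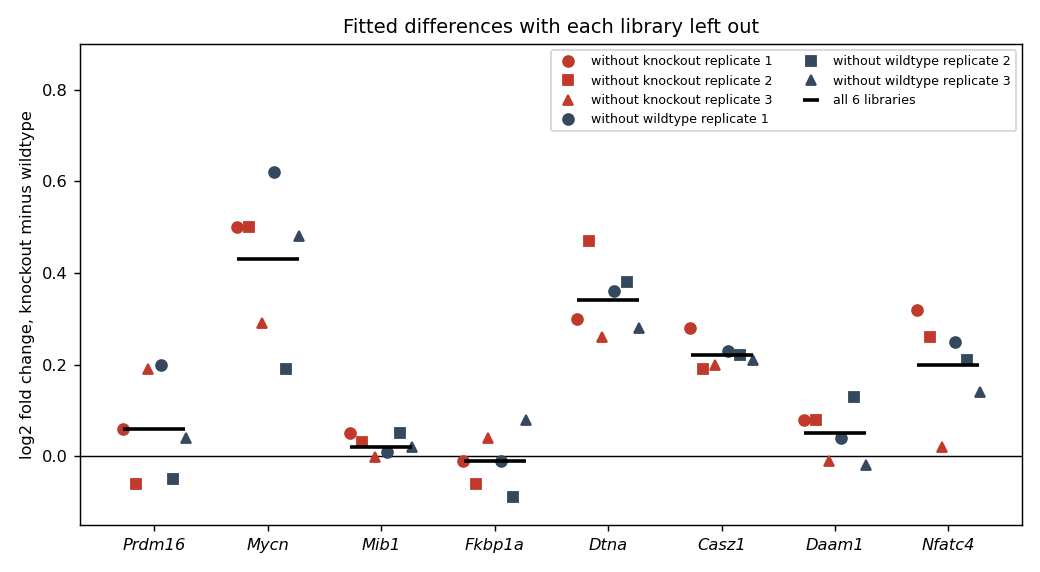
Fitted log2 fold change, knockout minus wildtype, of each wall compaction gene with each library left out in turn (red, a knockout library; dark blue, a wildtype library) and with all 6 libraries (black bar). Casz1, Dtna, Mycn and Nfatc4 stay above 0 in each case, while the points of Prdm16, Mib1, Fkbp1a and Daam1 lie on both sides of 0.

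Levels of different genes were compared per kilobase of exon. In wildtype hearts Fkbp1a was highest at 212 scaled reads per kilobase, followed by Daam1 at 116, Casz1 at 81.1, Mib1 at 61.9, Nfatc4 at 46, Prdm16 at 45.2, Mycn at 28.3 and Dtna at 23.5. Nfatc4 and Prdm16, next to each other in that order, overlapped between libraries, and so did Mycn and Dtna. Fkbp1a stood above 93.1% of the genes tested by this level and Dtna above 29.5%. Exon length counts every annotated exon, which sets the level per kilobase low for a gene with many alternative exons, such as Dtna. Removal of duplicate reads, not known here, would also lower the levels of high genes.

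None of the paralogues of the 8 genes passed the test with all 6 libraries. The ryanodine receptor partner Fkbp1b, which encodes FKBP12.6, was at 29.7 scaled reads per kilobase in wildtype hearts, below Fkbp1a in every library. The log2 fold change of Fkbp1b was 0.24 (limma, adjusted p = 0.636). Among NFAT genes, Nfatc1 was highest per kilobase in wildtype hearts at 68.2, ahead of Nfatc4, Nfatc2 at 38.2 and Nfatc3 at 31. Nfatc1, an endocardial gene, held 582, 681 and 465 in knockout and 519, 523 and 487 in wildtype libraries, so knockout replicate 3 had the lowest Nfatc1 and the highest Nfatc4 of all libraries. Myc held 311, 173 and 370 in knockout and 172, 236 and 178 in wildtype libraries (log2 fold change 0.49, limma, adjusted p = 0.459), and passed without knockout replicate 2 (adjusted p = 0.0284). Mycl was too low to test at 9, 5 and 46 in knockout and 5, 5 and 6 in wildtype libraries, again with knockout replicate 3 highest. Mecom, Mib2, Daam2 and Dtnb had log2 fold changes of 0.02, 0.05, -0.03 and -0.19 (limma, adjusted p = 0.919, 0.8, 0.868 and 0.629).

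**Figure D4:**
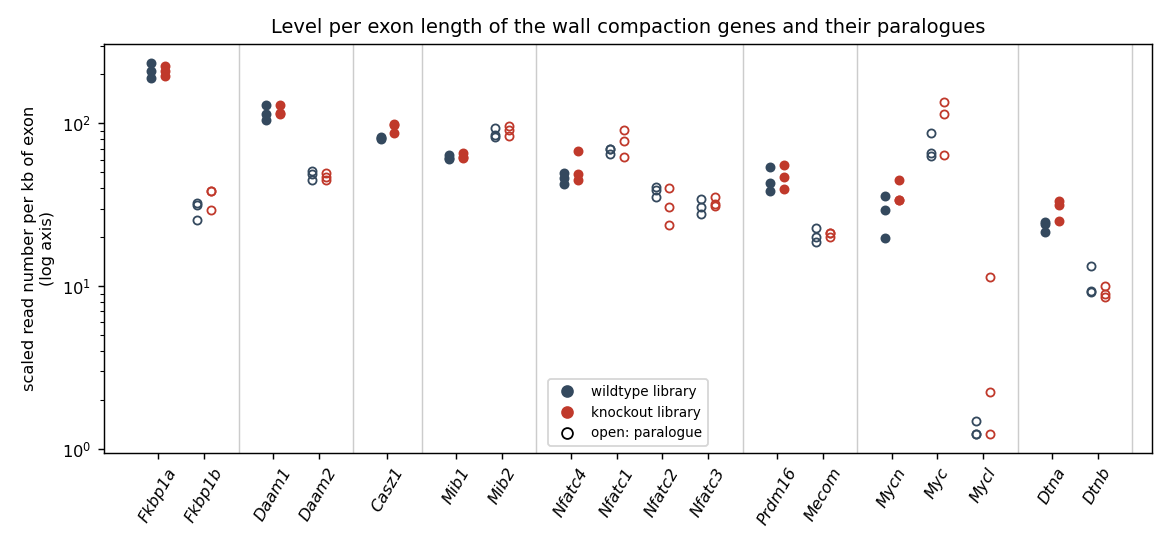
Scaled read number per kilobase of exon (log axis) of each wall compaction gene (filled) and its paralogues (open) in each wildtype and knockout library. By group mean Fkbp1a is the highest and Mycl the lowest, although Mycl in knockout replicate 3 lies above the Dtnb means of 9.2 in knockout and 10.6 in wildtype. The knockout and wildtype points overlap for every gene shown except Casz1 and Dtna.

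Around these genes, 10 lists of pathway genes held 191 further tested genes, of which 3 fell and 0 rose, where 0.434% of all genes tested fell and 0.508% rose. The 3 were Hey2, Casq1 and Myoz1. The counts for single lists that follow include the wall compaction genes in them. In the Notch list, in which Mib1 acts, 1 of 30 tested genes fell and 0 rose, with a median log2 fold change of 0.05. A fitted value above 0 was found in 21 of the 30 and in 49.8% of all genes tested. An unadjusted p under 0.05 by limma was reached by 4 with higher and 2 with lower values in knockout, where 8.54% and 7.86% of all genes tested did so. Hey2, a repressor that Notch can switch on and that marks compact myocardium, held 518, 531 and 513 in knockout and 707, 696 and 748 in wildtype libraries. The groups were far apart, and all 3 knockout libraries lay close together. The fitted log2 difference was -0.46 (standard error 0.06, limma, adjusted p = 0.0219). The same gene was the 1 of 17 that fell among transcription factors of the ventricular wall, where 0 rose. Whether the level of Hey2 follows Notch output in these hearts was not tested. None of the 4 Notch receptors passed, with fitted log2 differences of 0.21 for Notch1, 0.01 for Notch2, 0.21 for Notch3 and 0.45 for Notch4 (limma, adjusted p = 0.141, 0.976, 0.155 and 0.21). The summed endothelial and endocardial markers, higher in each knockout library but uneven from gene to gene, stand beside these values. Their part in them was not tested.

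Of the genes around Fkbp1a, the other FK506-binding proteins and the ryanodine receptor complex, 1 of 18 fell and 0 rose, with a median log2 fold change of 0.04. The 1 was Casq1, which encodes the calcium-storing protein calsequestrin of skeletal muscle. It held 211, 263 and 224 in knockout and 415, 357 and 409 in wildtype libraries (log2 fold change -0.76, standard error 0.1, limma, adjusted p = 0.0221). Of the calcineurin and NFAT list, around Nfatc4, 1 of 18 fell and 0 rose, with a median of 0.06. This was Myoz1, which encodes a calcineurin-binding protein of the Z-disc of fast skeletal muscle. It held 62, 55 and 55 in knockout and 107, 100 and 103 in wildtype libraries (log2 fold change -0.84, standard error 0.14, limma, adjusted p = 0.0399). Markers of skeletal muscle summed to 1542 to 1738 in knockout and 1763 to 2006 in wildtype libraries, mostly from Ckm, which the heart also expresses, and 0 of 5 tested changed. Of the markers that define the skeletal lineage, Myod1 held 7 in knockout replicate 1 and 0 in the other 5 libraries, and Myog held 0 to 6, and the part of such cells in the fall of Casq1 and Myoz1 was not tested.

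The calls of Hey2, Casq1 and Myoz1 depended on the libraries used. The adjusted p of Hey2 was 0.0937, 0.143, 0.099 and 0.146 without knockout replicate 1 and wildtype replicates 1, 2 and 3, and that of Casq1 was 0.0916, 0.147, 0.099 and 0.179. For Myoz1 it was 0.106, 0.233, 0.12 and 0.204. In these 4 cases 0 to 6 genes of the whole table passed. Without trend and robust moderation the adjusted p was 0.0861 for Hey2 and 0.0875 for Casq1, and in male libraries only it was 0.0566 for Myoz1. Over all 18 alternatives the fitted log2 difference lay between -0.48 and -0.43 for Hey2, -0.85 and -0.69 for Casq1, and -0.9 and -0.79 for Myoz1. Without knockout replicate 3 the number of list genes that passed was 14 of 191, among them Notch1, Nfatc1, Mxd3, Myh7, Nrg1 and Sntb1, where 4.75% of all genes tested (703 of 14798) passed.

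In the lists around the other genes no gene passed with all 6 libraries. Of 34 tested genes of planar cell polarity and formins, around Daam1, 0 rose and 0 fell by limma. With voom on recovered reads, 0 of the 34 passed an adjusted p of 0.05 either. By limma, 3 of the 34 had an unadjusted p under 0.05, beside 16.4% of all genes tested. Vangl1, a core membrane protein of that pathway, had the smallest p, at 236, 272 and 245 in knockout and 294, 312 and 303 in wildtype libraries (log2 fold change -0.27, limma, adjusted p = 0.156). In the dystrophin complex list, around Dtna, 0 of 22 passed by limma or voom. There 4 of the 22 had an unadjusted p under 0.05, beside the same 16.4% of all genes tested. Sntb1, a syntrophin that binds dystrobrevin, held 800, 813 and 753 in knockout and 525, 643 and 645 in wildtype libraries (log2 fold change 0.39, limma, adjusted p = 0.0782). For Dmd, which encodes dystrophin, the log2 fold change was 0.26 (limma, adjusted p = 0.166). Sntb1 passed with library sex in the model (adjusted p = 0.0352) and when knockout replicate 3 was left out (adjusted p = 0.0181), and its adjusted p was up to 0.314 over 18 alternatives.

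Around Mycn, 0 of 11 genes of the MYC network passed by limma or voom. An unadjusted p under 0.05 by limma was reached by 3 of the 11 and by 16.4% of all genes tested. Mxd3, which encodes a partner of Max that opposes Myc, had the smallest p, at 29, 35 and 49 in knockout and 69, 55 and 91 in wildtype libraries (log2 fold change -0.91, limma, adjusted p = 0.13). In the PRDM family 0 of 11 passed by limma or voom. Prdm11 (log2 fold change 0.4, limma, adjusted p = 0.206) was the 1 of 11 with an unadjusted p under 0.05, beside the same 16.4%. Among trabecular signals 0 of 21 passed by limma or voom, while an unadjusted p under 0.05 was reached by 6 with higher and 0 with lower values in knockout, where 8.54% and 7.86% of all genes tested did so. The list median was 0.11 on the log2 scale. Nrg1, the growth factor of the endocardium that drives trabeculation, held 54, 40 and 130 in knockout and 17, 17 and 13 in wildtype libraries (log2 fold change 2.01, limma, adjusted p = 0.0601). Nrg1 passed in 5 of 17 alternatives. The summed endothelial and endocardial markers given above, uneven from gene to gene, were also higher in each knockout than in each wildtype library. Their part in these values was not tested. Of 25 other genes known from noncompaction, 0 passed by limma or voom. There 5 of the 25 had an unadjusted p under 0.05, beside 16.4% of all genes tested. Myh7, the slow myosin heavy chain, had the smallest p there (log2 fold change 0.25, limma, adjusted p = 0.0901).

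**Figure D5:**
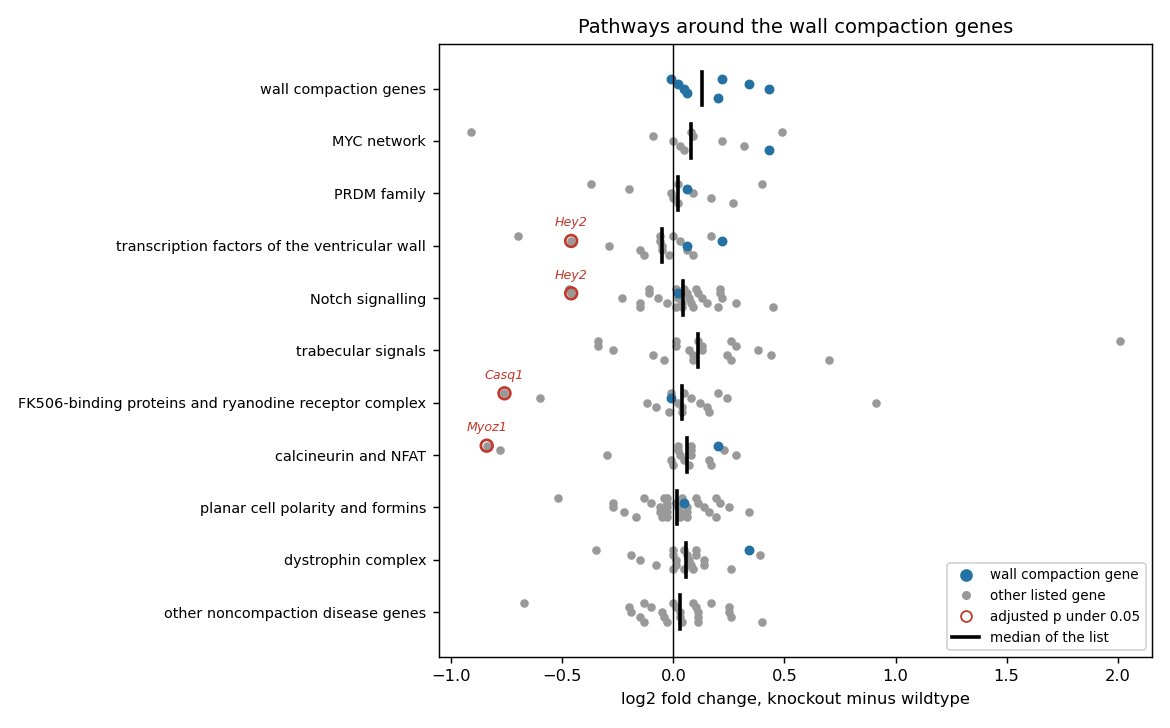
Fitted log2 fold change, knockout minus wildtype, of every tested gene of each list, with the wall compaction genes in blue, genes past an adjusted p of 0.05 ringed in red and the median of each list as a black bar. The ringed genes are Hey2, Casq1 and Myoz1, all below 0, and no wall compaction gene is ringed.

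The genes whose profile over the 6 libraries lay nearest to each of the 8 were found by the root mean square difference of centred log2 values among 11709 other genes. The nearest to Daam1 was Shprh (0.006), to Mib1 Il6st (0.011), to Fkbp1a Rpl32 (0.014) with Ldha, to Nfatc4 Slc4a1ap (0.022), to Dtna Mt2 (0.023), to Casz1 Ercc1 (0.03), to Prdm16 Alg3 (0.07) and to Mycn Asns (0.107). With 6 libraries and this many genes, near profiles are to be found for any gene. None of the 8 nearest genes passed the test, with adjusted p from 0.219 for Mt2 to 0.909 for Rpl32 (limma). They were picked for nearness, over the same libraries, to genes that did not pass, so this outcome was largely set by the choice. Asns, which makes asparagine, held 82, 80 and 100 in knockout and 75, 52 and 73 in wildtype libraries, with knockout replicate 3 highest and wildtype replicate 2 lowest, as for Mycn. That likeness is what Asns was picked for.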

How the data were processed

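Heart RNA of 3 Rbpms knockout and 3 wildtype libraries was made into strand-marked mRNA libraries and read from a single end, per the labels' protocols. Tools named in the submitters' processing notes, without role or order, are featureCounts 2.0.4, STAR 2.7.11a, DESeq2 1.36.0, Trimmomatic 0.39 and Picard 3.0.0. The build is mm39. The deposited values are a score, read numbers that the authors multiplied by a factor for each library and rounded, as read from the spacing of low values. The factors, estimated as 0.8524 to 1.1798, gave the recovered reads. In some libraries several read numbers round to the same value, so the recovered reads are not exact. This held for 30.26% of values in knockout replicate 3, 11.52% in knockout replicate 1 and 7.0% in wildtype replicate 2. No source used here says whether counting used strand.

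Since the values are not raw counts, the planned test for normalized values was used: limma 3.58.1 (R 4.3.3, statmod 1.5.0) with intensity trend, robust moderation and no covariate. It was applied to log2(value + 1) of the 14974 genes that reached 10 in 3 or more libraries, with Benjamini-Hochberg adjustment over them. Adding 1 before the logarithm understates fold changes of low genes. Exon lengths came from GENCODE M21 (GRCm38), matched by identifier for 98.2% of tested genes, without its coordinates. The script was tested on simulated data. No column of another sample was used.

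The 8 genes and the lists were chosen with earlier results of these data known. Named genes were the 8, Rbpms, their close paralogues, up to 4 changed genes of each list or else the one with the smallest p, and the 3 nearest profiles of each of the 8, of which the report prints the nearest. Genes named outside this rule (Notch1, Notch2, Notch3, Notch4, Dmd, Ckm, Myod1, Myog, Stard10, Xist, Myh6, Tnnt2, the endothelial and endocardial markers other than Nfatc1, the 8 smooth muscle and pericyte markers and the overlapping Mir133a-1hg) were chosen after their values were seen. Alternatives covered scaling, filter, pseudocount, moderation, voom on the deposited and on the recovered reads, the replicate number, sex as read from Xist, and each library left out. Male libraries alone were added after seeing the data.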

Additional observations from a re-analysis of the deposited data

How the results depend on the processing

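None of the 8 genes passed in 17 of 18 alternatives, and Dtna alone passed in the other, so the range was 0 to 1 with each library left out in turn. Over all genes the count of 141 became 218 with no filter on low values, 78 at a mean value of at least 50, 24 with no trend and no robust moderation, 87 and 77 by voom on the deposited values and on recovered reads (39 higher and 48 lower, and 30 and 47, against 76 and 65), 223 with a term for library sex and 259 in male libraries only. It ran from 0 to 703 with each library left out: 6, 495 and 703 without knockout replicates 1, 2 and 3, and 3, 0 and 0 without wildtype replicates 1, 2 and 3, where 1446, 2145 and 1823 genes had an unadjusted p under 0.05 by limma. The 3 changed genes of the lists became 1 with no trend and no robust moderation, 5 with a term for library sex, and 0 to 14 with each library left out. With the replicate number as a block, 23 genes changed over all, 0 in the lists and 0 of the 8. Same-numbered libraries did not deviate together (correlations of -0.169, -0.111 and -0.13), and in no case was the same number the best match. The best matches of knockout replicates 1, 2 and 3 were wildtype replicates 2, 3 and 1 (0.125, 0.136 and 0.124), the last pair being the female libraries. Only pairing by number was fitted, and whether littermates are paired in another order was not tested. Signs turned for Prdm16 (-0.06 to 0.2), Mib1 (-0.0028 to 0.05), Fkbp1a (-0.09 to 0.08) and Daam1 (-0.02 to 0.13) with each library left out, and in male libraries only for Mib1 (-0.02), Fkbp1a (0.04) and Daam1 (-0.02). The cause of these shifts was not tested. Mycn, Dtna, Casz1 and Nfatc4 kept a fitted value above 0 in all 18 alternatives. With a mean value near 100, Mycn rests on about as many reads per library, which limits the difference that can be seen.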
